A study of Solanum lycopersicum with 6 samples.

Results

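The genes described here are 3 RBCS genes, for the small subunit of the carbon-fixing enzyme Rubisco, and the gene for Rubisco activase, 4 of 23709 genes listed in at least 1 library. They were chosen by identifier: RBCS1 (Solyc02g063150.2) and RBCS3 (Solyc02g085950.2) on chromosome 2, RBCS2 (Solyc03g034220.2) on chromosome 3, and Rubisco activase (Solyc10g086580.1) on chromosome 10. The names of the RBCS genes were matched to RefSeq genes (assembly SLM_r2.1) only by chromosome and gene order. That table lists RBCS3 and another copy, RBCS4, side by side on chromosome 2, so RBCS3 may stand for either or both here. RefSeq lists no activase gene by name, so that name was not checked. All 4 genes were present in all 6 files, and all 4 passed the filter on low counts.

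Rubisco fixes carbon dioxide in the Calvin cycle of the chloroplast, and its small subunit is encoded in the nucleus by a small family of RBCS genes, while the large subunit is encoded in the plastid. Rubisco activase, also encoded in the nucleus, uses ATP to free the active site of Rubisco from bound sugar phosphates. Tomato fruit is green and photosynthetic while it grows, and its chloroplasts turn into chromoplasts during ripening, when transcripts of photosynthesis genes decline.

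RNA was sequenced from the pericarp, the fleshy wall, of tomato (*Solanum lycopersicum*) fruit at 38 days post anthesis. There were 3 libraries from SlDof1 RNAi fruit, titled SlDof-8, and 3 from wild-type fruit. RNAi silences a gene through double-stranded RNA, and Dof proteins are plant zinc-finger transcription factors. The labels name no promoter for the RNAi construct, no cultivar, and no identifier for SlDof1, so its silencing was not checked here. Nor do they say whether the replicates came from separate plants or fruits, so a p-value here reflects only how far these libraries scatter, which may be technical.

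Total expected counts were 9641678 to 9942009 in SlDof1 RNAi libraries and 9608643 to 10002358 in wild-type libraries. SlDof1 RNAi library 3 and wild-type library 1 stood apart from the other 4 libraries on the second principal component (30.4% of the variance), at -32.2 and -32.6 against 13.7 to 18.3. Over all genes, edgeR called 2065 of 16737 tested genes at an adjusted p under 0.05, which is 12.3%, with 6.54% higher and 5.8% lower in SlDof1 RNAi fruit.

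Transcripts of the Rubisco small subunit were higher in SlDof1 RNAi fruit than in wild-type fruit, by 1.71-fold for the 3 genes together. All 3 RBCS genes rose, and Rubisco activase did not pass the test. The comparison asks whether the fruit of both genotypes differ in transcripts of the carbon-fixing enzyme at this stage. RBCS genes are near-identical copies whose reads can be assigned to the wrong copy, so their summed count was the main measure. The expected count was whole within 0.005 in all 24 values (4 genes in 6 libraries). Of all values listed in a library, 94.5% to 94.9% were whole by the same rule. A whole count does not show that each read was assigned to the right copy.

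The summed RBCS count was 4453, 4788 and 4106 in SlDof1 RNAi libraries 1 to 3, against 2457, 2386 and 2669 in wild-type libraries 1 to 3. Every SlDof1 RNAi library lay above every wild-type library. As a share of all counts this was 0.0451%, 0.0482% and 0.0426% in SlDof1 RNAi fruit and 0.0256%, 0.0243% and 0.0267% in wild-type fruit. The log2 fold change of the sum was 0.78 ± 0.09 SE (edgeR's quasi-likelihood test, Benjamini-Hochberg adjusted p over every tested gene = 0.00131). The 95% interval of the fold change ran from 1.48 to 1.98. An exact two-sided permutation test over libraries gave p = 0.1, the smallest that 3 against 3 allows. Of all genes tested, 4.74% had a higher log2 fold change. In bulk tissue, more cells that express these genes and more RNA per cell cannot be told apart.

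**Figure D1:**
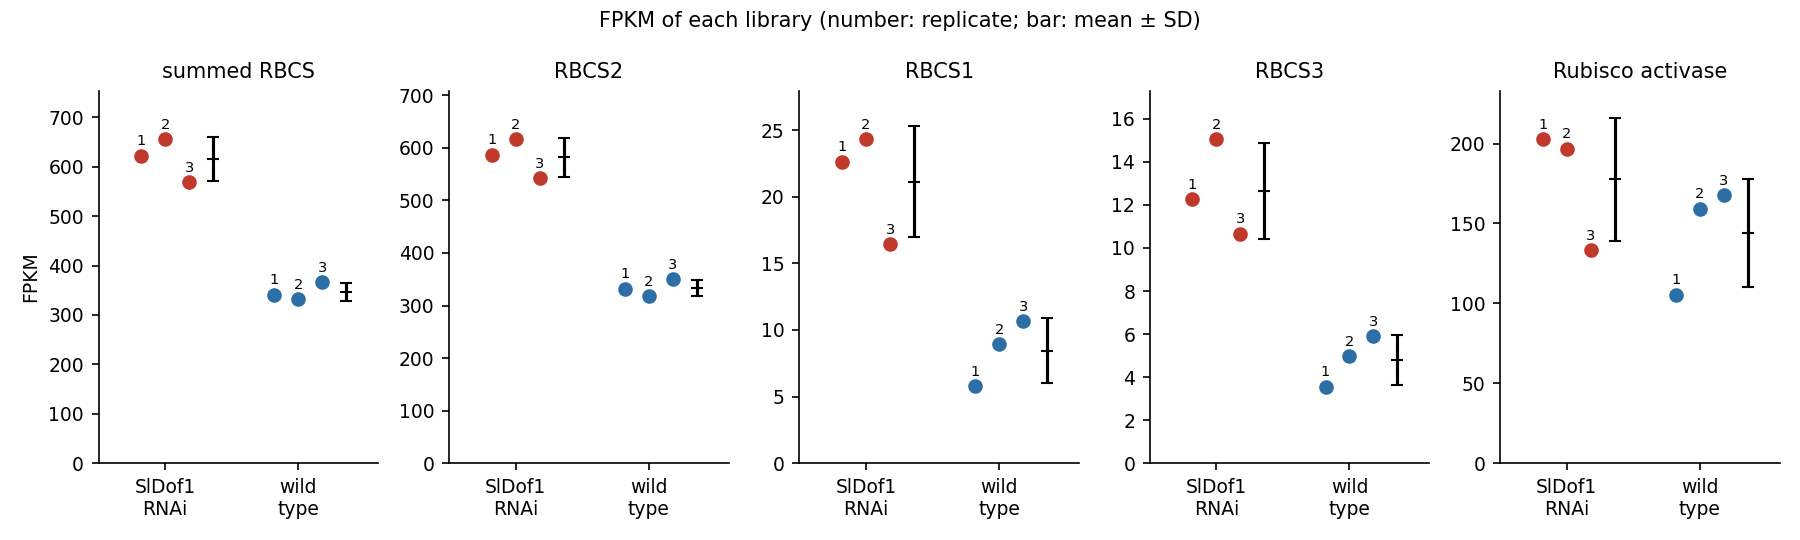
FPKM (fragments scaled by gene length and library total) of the summed RBCS genes, RBCS2, RBCS1, RBCS3 and Rubisco activase in each of the 3 SlDof1 RNAi (red, left) and 3 wild-type (blue, right) libraries, numbered by replicate, with the mean ± SD beside them; each panel has its own axis from 0. The groups do not overlap for the sum or for any RBCS gene, while SlDof1 RNAi library 3 lies below wild-type libraries 2 and 3 for activase.

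RBCS2 supplied nearly all of the summed transcript of these 3 RBCS genes in both groups. It was at 587, 617 and 542 FPKM in SlDof1 RNAi libraries 1 to 3, against 332, 318 and 350 FPKM in wild-type libraries 1 to 3. FPKM is scaled by gene length and so compares genes within a library. By FPKM it ranked 105th to 118th of the listed genes in SlDof1 RNAi libraries and 272nd to 306th in wild-type libraries. RBCS2 rose by a log2 fold change of 0.75 ± 0.09 SE (edgeR adjusted p = 0.00134), with a 95% interval of the fold change from 1.46 to 1.93.

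RBCS1 was expressed at a far lower level. It was at 22.6, 24.3 and 16.4 FPKM in SlDof1 RNAi libraries 1 to 3 and at 5.78, 8.92 and 10.7 FPKM in wild-type libraries 1 to 3. The groups did not overlap, and the lowest library of each group was one of the pair that stood apart. The counts behind these values were 179, 196 and 131 in SlDof1 RNAi libraries and 46, 71 and 86 in wild-type libraries. RBCS1 rose 2.40-fold (95% interval 1.65 to 3.50; log2 fold change 1.26 ± 0.24 SE, edgeR adjusted p = 0.0109).

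RBCS3 was the lowest of the 4 genes. It was at 12.3, 15.1 and 10.7 FPKM in SlDof1 RNAi libraries 1 to 3 and at 3.56, 4.96 and 5.89 FPKM in wild-type libraries 1 to 3. Here too the groups did not overlap. The counts were 96, 120 and 84 in SlDof1 RNAi libraries and 28, 39 and 47 in wild-type libraries, and at 28 counts the counting error alone is 18.9% of the value. RBCS3 rose 2.53-fold (95% interval 1.79 to 3.59; log2 fold change 1.34 ± 0.22 SE, edgeR adjusted p = 0.00629).

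Thus 3 of the 4 genes were called, all higher, where 6.54% of all tested genes were called higher. The groups did not overlap for these 3, as for 31% of all tested genes in either direction and 18.9% with SlDof1 RNAi higher. The members were chosen with earlier results of these data known, so these counts are descriptive.

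**Figure D2:**
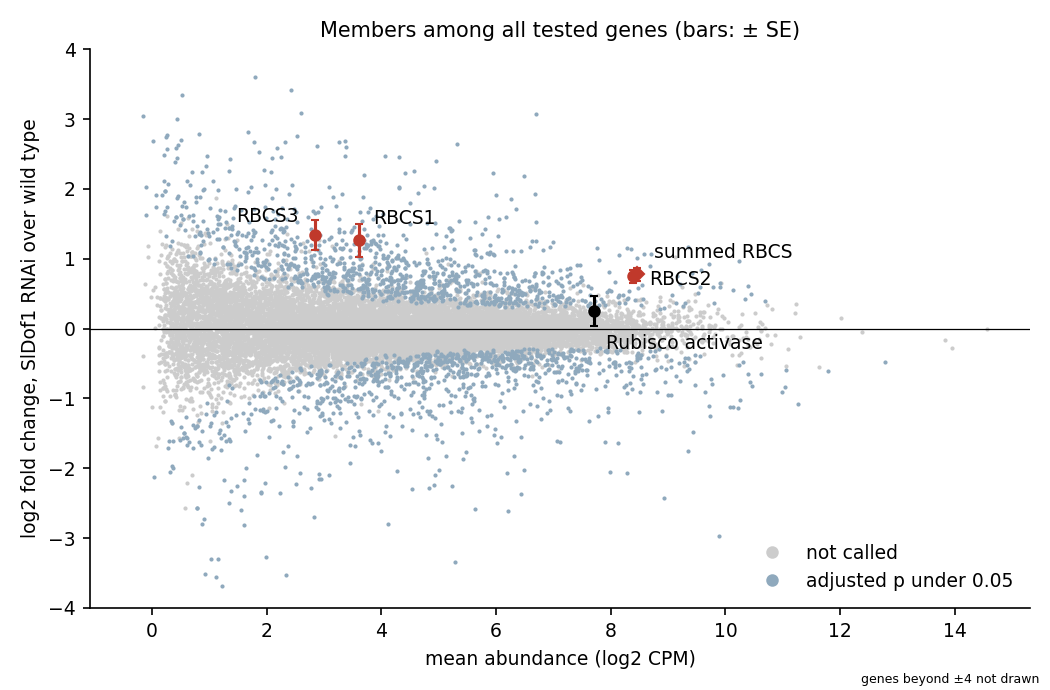
Log2 fold change of SlDof1 RNAi over wild type (y axis, bars ± SE for the named genes) against mean abundance in log2 CPM (counts scaled to library size, x axis) for the 16737 tested genes, with called genes in blue-grey. RBCS1, RBCS2, RBCS3 and their sum (red) lie between 0.75 and 1.34 on the log2 scale, and activase (black) lies at 0.25 among genes that were not called.

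Rubisco activase was the second most abundant of the 4 genes per length. It was at 203, 197 and 133 FPKM in SlDof1 RNAi libraries 1 to 3 and at 105, 159 and 168 FPKM in wild-type libraries 1 to 3. The groups overlapped: SlDof1 RNAi library 3 lay below wild-type libraries 2 and 3. Its means were 178 ± 38.6 FPKM in SlDof1 RNAi fruit and 144 ± 33.8 FPKM in wild-type fruit (SD, n = 3 each). The log2 fold change was 0.25 ± 0.21 SE and did not pass (edgeR adjusted p = 0.538). Its 95% interval, from 0.85-fold to 1.66-fold, leaves room for a fall as well as for a rise close to that of RBCS2. In the 4 libraries other than SlDof1 RNAi library 3 and wild-type library 1, activase passed at nearly the same size (log2 fold change 0.24 ± 0.07 SE, edgeR adjusted p = 0.0191), where 22% of all tested genes passed. That pair was singled out in the data that are tested, so the smaller spread of the remaining 4 is partly a matter of selection.

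The mix of copies was compared as the percent of summed RBCS FPKM. RBCS2 made up 94.4%, 94.0% and 95.2% of the sum in SlDof1 RNAi libraries 1 to 3, against 97.3%, 95.8% and 95.5% in wild-type libraries 1 to 3. The groups did not overlap, with a mean difference of -1.64 percentage points (exact two-sided permutation test, p = 0.1, the smallest that the design allows). The share of RBCS3 averaged 2.05% ± 0.22 in SlDof1 RNAi fruit and 1.38% ± 0.30 in wild-type fruit (SD, n = 3 each; exact permutation p = 0.1). The share of RBCS1 averaged 3.41% ± 0.45 in SlDof1 RNAi fruit and 2.43% ± 0.65 in wild-type fruit, and its groups overlapped (SD, n = 3 each; exact permutation p = 0.2). The difference in the RBCS1 share, 0.98 percentage points, was 0.61 without wild-type library 1. These tests could not pass 0.05, so they do not decide whether the copies changed by different amounts. The 95% intervals of the 3 fold changes overlap, but an overlap of intervals is not a test of a difference.

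Activase was then set against the small subunit within each library. The log2 ratio of its count to the summed RBCS count was -0.80, -0.93 and -1.29 in SlDof1 RNAi libraries 1 to 3, against -0.89, -0.24 and -0.31 in wild-type libraries 1 to 3. Wild-type library 1 fell among the SlDof1 RNAi values. The means differed by -0.52 on the log2 scale (exact two-sided permutation test, p = 0.2, where 0.1 is the smallest that the design allows). A smaller change of activase than of RBCS was thus not established.

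**Figure D3:**
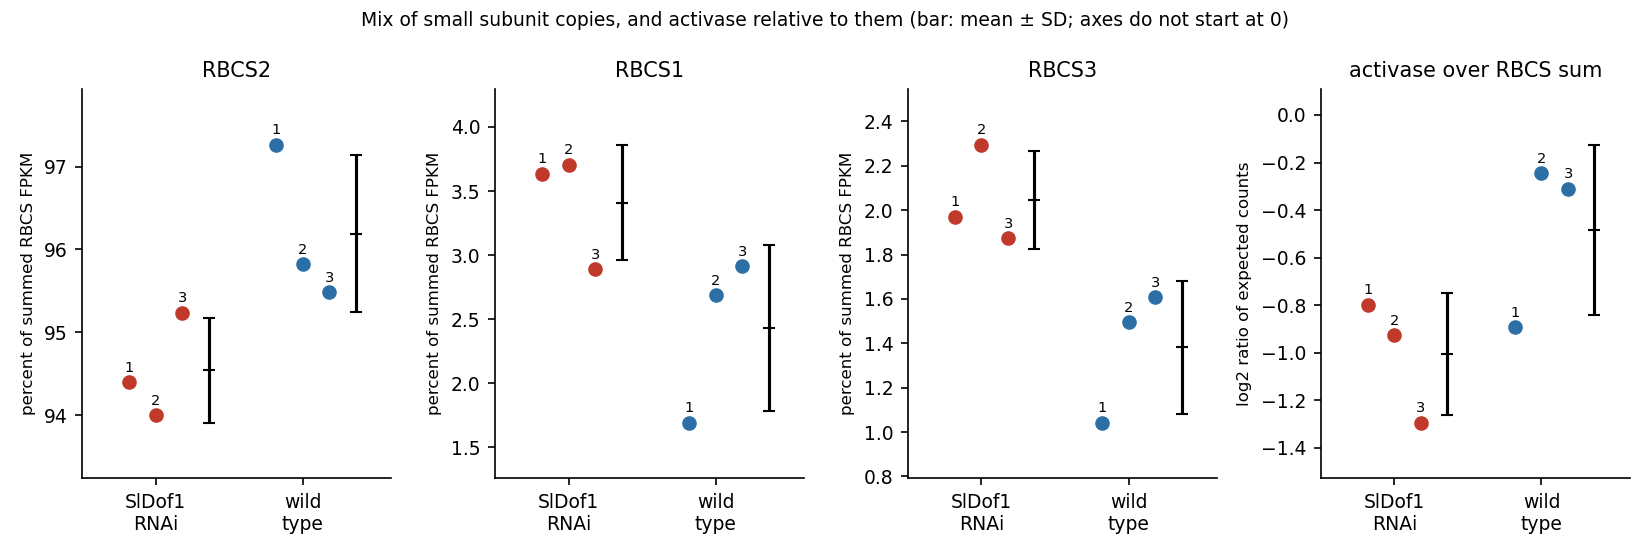
Percent of the summed RBCS FPKM contributed by RBCS2, RBCS1 and RBCS3, and the log2 ratio of the activase count to the summed RBCS count (y axes, which do not start at 0), in each SlDof1 RNAi (red, left) and wild-type (blue, right) library, with mean ± SD. RBCS2 holds 94.0% to 95.2% of the sum in SlDof1 RNAi libraries and 95.5% to 97.3% in wild-type libraries; wild-type library 1 lies among the SlDof1 RNAi libraries for the activase ratio.

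The 4 genes differed in how the pair of libraries that stood apart behaved within its own group. On the log2(FPKM + 1) scale, activase was lower by 0.58 in SlDof1 RNAi library 3 than in the mean of libraries 1 and 2, and by 0.63 in wild-type library 1 than in the mean of libraries 2 and 3. For RBCS1 these offsets were -0.49 in SlDof1 RNAi fruit and -0.67 in wild-type fruit, and for RBCS3 they were -0.32 and -0.49 in the same order. RBCS2 was almost level, at -0.15 in SlDof1 RNAi fruit and -0.01 in wild-type fruit.

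The light-harvesting genes, whose proteins bind chlorophyll and feed the photosystems, had the same kind of offset as activase. Of 18 tested members of that list, 17 were lower in both libraries, where 35.1% of all tested genes were. The median offsets of the list were -0.72 in SlDof1 RNAi library 3 and -0.70 in wild-type library 1, against medians over all genes of 0.02 and 0.01. Both libraries were also lower for 15 of 18 electron transport genes, 5 of 6 photorespiration genes and 9 of 14 Calvin cycle genes. They were lower for 1 of 8 ripening genes, whose median offsets were 0.18 in SlDof1 RNAi library 3 and 0.34 in wild-type library 1, and for 0 of 2 carbonic anhydrase genes. The part of this split in the activase result was not tested beyond the fit on the other 4 libraries.

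**Figure D4:**
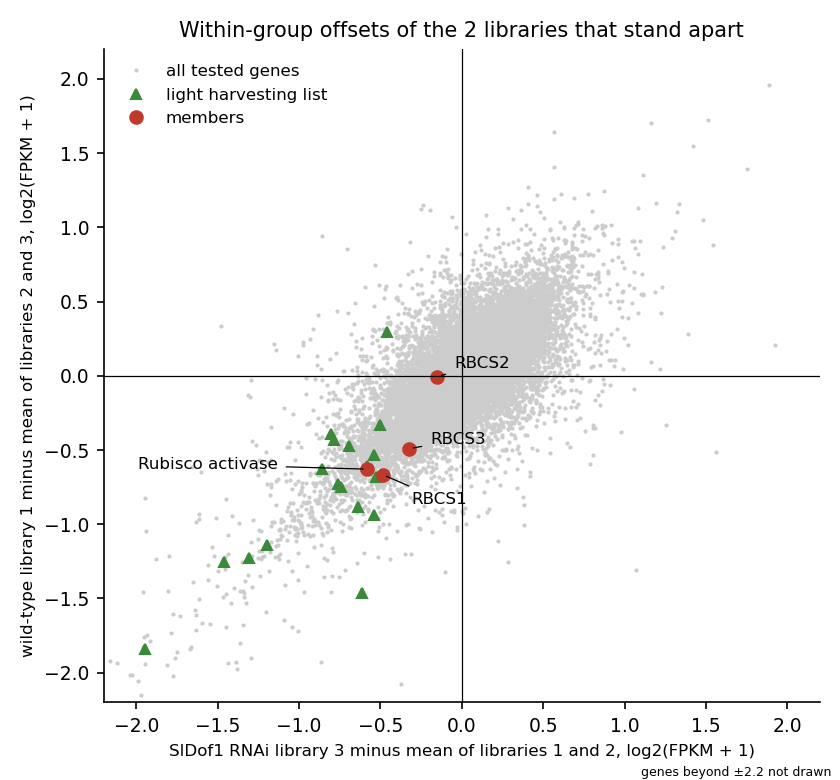
Offset of SlDof1 RNAi library 3 from the mean of SlDof1 RNAi libraries 1 and 2 (x axis) against the offset of wild-type library 1 from the mean of wild-type libraries 2 and 3 (y axis), both as differences of log2(FPKM + 1), for all tested genes (grey), the light-harvesting list (green) and the 4 genes (red). Activase lies at -0.58 and -0.63 among the light-harvesting genes, and RBCS2 lies near the horizontal zero line at -0.15 and -0.01.

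Other genes of photosynthesis were compared as lists, whose names were recalled and then checked by chromosome and gene order where RefSeq lists the gene. Of 14 tested Calvin cycle genes, edgeR called 2 higher and 0 lower, against 6.54% higher and 5.8% lower among all tested genes. The other 12 did not pass. The median log2 fold change of the 14 was 0.14, beside -0.01 over all genes. At an unadjusted p under 0.05, 3 of them were higher and 2 lower, and both DESeq2 and limma called 2 higher and 0 lower. Over all genes, 12.8% were higher and 12.5% lower at that unadjusted p, DESeq2 called 5.45% higher and 4.67% lower, and limma on log2(FPKM + 1) called 7.48% higher and 4.27% lower. Only 4 of the 14 names could be checked. None of these 4 was called: the plastid enzyme SBPASE, sedoheptulose bisphosphatase, was at 126 ± 3.12 FPKM in SlDof1 RNAi fruit and 115 ± 1.66 FPKM in wild-type fruit (SD, n = 3 each). The aldolase FBA1 was at 67.9 ± 12.2 FPKM in SlDof1 RNAi fruit and 49.3 ± 7.22 FPKM in wild-type fruit (SD, n = 3 each; edgeR log2 fold change 0.41 ± 0.16 SE). The aldolase FBA3 was the most variable of the 4, at 642 ± 230 FPKM in SlDof1 RNAi fruit and 619 ± 221 FPKM in wild-type fruit, with a log2 fold change of 0.00 ± 0.34 SE. Without wild-type library 3, edgeR called 0 Calvin cycle genes higher. It called only 1 higher without wild-type library 2 or SlDof1 RNAi library 1 or 2.

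Carbonic anhydrases interconvert carbon dioxide and bicarbonate. CA3 (Solyc02g067750.2) was at 16.9, 18.9 and 17.8 FPKM in SlDof1 RNAi libraries 1 to 3, against 7.13, 6.60 and 7.20 FPKM in wild-type libraries 1 to 3. These groups lay far apart relative to their spread, and CA3 rose by 1.30 ± 0.12 SE on the log2 scale (edgeR adjusted p = 0.000447), a change of the size seen for RBCS1 and RBCS3. CA1 (Solyc05g005490.2), the more abundant gene, was at 326 ± 21.9 FPKM in SlDof1 RNAi fruit and 319 ± 28.4 FPKM in wild-type fruit and did not pass (SD, n = 3 each; edgeR adjusted p = 0.900).

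Photorespiration recycles the product that Rubisco makes with oxygen. Of 6 genes recalled for it, none with a name that could be checked, edgeR called 1 higher and 2 lower, and 3 did not pass. Over all tested genes, edgeR called 6.54% higher and 5.8% lower. The median log2 fold change of the 6 was -0.04. DESeq2 and limma each called 1 of the 6 higher and 2 lower (their shares over all genes are those given for the Calvin cycle list). Without wild-type library 2 or 3 or SlDof1 RNAi library 1, edgeR called only 1 lower. Calls over all genes, in either direction, ranged from 1108 to 1150 in these fits, against 2065 in all 6 libraries. Without SlDof1 RNAi library 3, edgeR called 2 of the 6 higher, where 1834 genes were called over all.

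Of 18 tested genes for subunits of the photosystems and for electron transport, edgeR called 3 higher and 0 lower, and 15 did not pass. Among all tested genes, the edgeR shares were 6.54% higher and 5.8% lower. The median log2 fold change of the 18 was 0.08. At an unadjusted p under 0.05, 5 were higher and 1 lower. DESeq2 called 4 higher and 0 lower, and limma 3 higher and 0 lower. The shares over all genes at the unadjusted p and in these 2 tools are those given for the Calvin cycle list. The 3 that edgeR called higher are not among the 7 whose names could be checked. Among those 7, PSBO and PSBP, proteins of the oxygen-evolving complex of photosystem II, were at 164 ± 19.7 and 220 ± 30.5 FPKM in SlDof1 RNAi fruit, and at 149 ± 15.3 and 228 ± 24.6 FPKM in wild-type fruit (SD, n = 3 each). Without wild-type library 2 or 3 or SlDof1 RNAi library 2, edgeR called 0 of this list higher. Without SlDof1 RNAi library 1, it called 1 higher. Calls over all genes, in either direction, ranged from 1108 to 1192 in these fits, against 2065 in all 6 libraries.

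Of the 18 tested light-harvesting genes, edgeR called 0 in either direction, where it called 12.3% of all tested genes. DESeq2 and limma also called 0 of the 18. By unadjusted p under 0.05 in edgeR, 2 of the 18 were higher and 0 lower, where 12.8% of all tested genes were higher and 12.5% lower. Fitted log2 fold changes of the list were above 0 for 15 of 18, with a median of 0.30. Over all tested genes they were above 0 for 8120 of 16737, with a median of -0.01. In the 4 libraries without the pair that stood apart, edgeR called 9 of the 18 higher and 0 lower. Among all tested genes it called 11.4% higher and 10.5% lower there. The pair left out is the one in which 17 of these 18 genes were lower. The 9 calls are thus partly a matter of selection. With only SlDof1 RNAi library 3 left out, 1 was called higher, where 1834 genes were called over all in either direction. In the same 4 libraries edgeR called 4 Calvin cycle genes higher and 1 lower, and 5 electron transport genes higher and 1 lower.

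A list of 8 ripening genes was set beside these values. Its members were picked with their fall in these data already known, so their direction is a description and no evidence on ripening genes as a group. All 8 were called lower in edgeR and 8 in DESeq2, but 6 in limma. Over all genes, edgeR called 5.8% lower, DESeq2 4.67% and limma on log2(FPKM + 1) 4.27%. The edgeR log2 fold changes ran from -2.97 for the polygalacturonase PG2a, a pectin-degrading enzyme, to -0.48, with a median of -0.82. Without SlDof1 RNAi library 1, edgeR called 4 of the 8 lower, and without SlDof1 RNAi library 2 it called 5 lower. Calls over all genes, in either direction, were 1142 and 1192 in the same order, against 2065 in all 6 libraries. The part of ripening stage in the RBCS result was not tested.

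**Figure D5:**
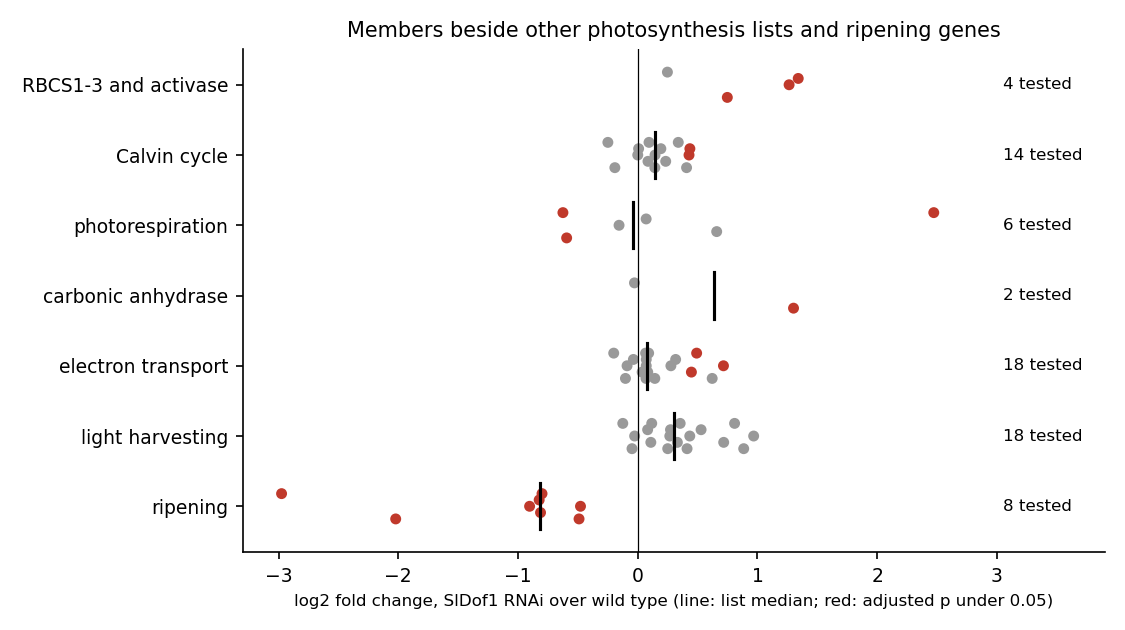
Log2 fold change of SlDof1 RNAi over wild type for each tested gene of RBCS1 to RBCS3 and activase and of 6 lists (rows), with genes at an edgeR adjusted p under 0.05 in red, others in grey, and list medians as black lines. The RBCS genes lie at 0.75 to 1.34, the Calvin cycle genes between -0.25 and 0.44, the 18 light-harvesting genes between -0.12 and 0.97 with none called, and the 8 ripening genes between -2.97 and -0.48.

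The genes whose pattern over the 6 libraries was most like that of the RBCS sum were found by the root mean square difference of mean-centred log2 CPM. Of 16734 genes ranked, Solyc08g062490.2 came first (0.04 on the log2 scale) and Solyc01g108910.2 second (also 0.04). Solyc08g062490.2 was at 29.0, 30.9 and 24.5 FPKM in SlDof1 RNAi libraries 1 to 3 and at 15.2, 14.6 and 16.2 FPKM in wild-type libraries 1 to 3. Solyc01g108910.2 was at 225, 235 and 216 FPKM in SlDof1 RNAi libraries 1 to 3 and at 133, 121 and 132 FPKM in wild-type libraries 1 to 3. Neither identifier is paired with a name in the sources used here. The nearest member of the photosynthesis lists, Solyc08g013670.2 of the electron transport list, ranked 186th at 0.14, followed by Solyc06g083680.2 of that list, ranked 336th at 0.17, and Solyc08g076220.2 of the Calvin cycle list, ranked 402nd at 0.18. Activase ranked 4295th, at 0.36 on the log2 scale.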

How the data were processed

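Pericarp was frozen in liquid nitrogen at harvest, total RNA was extracted with SDS and phenol, and standard Illumina library preparation was used, per the labels' protocols. The deposited files give an expected count (an estimated count that may hold fractions) and an FPKM value per gene, per the file headers. For the aligner, counter, strand and genome build, the status is the same: not given in the sources used here. Genes absent from a library's file were counted as 0 there.

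Expected counts were rounded and filtered with filterByExpr (10 counts at median library size, 15 in all), leaving 16737 genes, and scaled by TMM (factors 0.967 to 1.04). The main test was edgeR's quasi-likelihood F test for group, with Benjamini-Hochberg adjusted p-values across the table and a threshold of 0.05. For the RBCS sum, the 3 rows were replaced by 1 summed row in the whole table. Standard errors were derived from the fold change and the F statistic, and 95% intervals use the t distribution with the fitted degrees of freedom. The test was first run on simulated counts drawn independently for each library, and no result here rests on that run. Shares and ratios used exact permutation tests over libraries. Limma fits used log2(FPKM + 1) and log2(FPKM + 0.1) of the tested genes, with a trend. Libraries of a group differed by more than counting noise (chi-square per degree of freedom of at least 2.04).

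Members and lists were chosen with earlier results of these data known. For list genes, 37 recalled pairs of name and identifier, members included, were compared with RefSeq genes by chromosome and gene order, within 10 percentile points, a tolerance set after the values were seen. All 37 pairs met it, and 0 of 83 orderings within a chromosome were reversed. From the photosynthesis lists, the text names the called genes whose name was checked and the nearest genes by pattern; PG2a, SBPASE, FBA1, FBA3, CA1, PSBO and PSBP were chosen after their values were seen. Software was Python 3.11.15 with SciPy 1.17.1 and matplotlib 3.10.9, and R 4.3.3 with DESeq2 1.42.0, limma 3.58.1 and edgeR 4.0.16.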

Additional observations from a re-analysis of the deposited data

How the results depend on the processing

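The RBCS sum, RBCS1, RBCS2 and RBCS3 kept their direction and their side of the threshold under all 14 alternatives tried for each (DESeq2, upper-quartile scaling, library size only, no filter on low counts, both limma fits, the replicate number as a block, the 4 libraries without SlDof1 RNAi library 3 and wild-type library 1, and each library left out). With 1 library left out, the log2 fold change of the sum ranged from 0.72 to 0.83 (edgeR adjusted p at most 0.0123), and that of RBCS1, the nearest to the threshold, from 1.05 to 1.47 (adjusted p at most 0.0487). Rubisco activase ranged from 0.063 without wild-type library 1 to 0.42 without SlDof1 RNAi library 3 and passed only without both (log2 fold change 0.24, edgeR adjusted p = 0.0191). The shares of the copies and the ratio of activase to RBCS kept their sign under all 8 alternatives each. The number of called genes ranged from 1108 to 2038 with 1 library left out, was 3693 without both libraries, and was 877 with the replicate block. In the block fit the sum still passed (log2 fold change 0.77, adjusted p = 0.0232). Replicate numbers are not known to pair libraries: deviations of same-numbered libraries correlated at -0.49, 0.28 and -0.52, and no library correlated best with its own number; the highest correlation, 0.70, was between SlDof1 RNAi library 3 and wild-type library 1. RBCS1 and RBCS3 rest on 28 to 196 counts per library, which limits the precision of their fold changes.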
